A study of Mus musculus with 4 samples.

Results

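Wild type (WT) and KR islets were compared for how they responded to refeeding, gene by gene. For each gene the response of a genotype was its level in the refed library minus its level in the fasted library, both as log2(FPKM + 1), where FPKM counts fragments relative to the length of the transcript and the size of the library. The WT response was then subtracted from the KR response, and this value is called the difference of responses. It is above 0 where the KR level went up more, or down less, between fasting and refeeding than the WT level did. The same value is the KR minus WT difference in the refed state minus the KR minus WT difference in the fasted state. Of 23235 gene symbols, 9176 were compared, namely those with an accepted value in all 4 libraries and a mean of at least 5 FPKM, without the small RNA genes.

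The RNA came from pancreatic islets of C57BL/6 mice in 4 groups, fasted WT, refed WT, fasted KR and refed KR. In KR mice, as known from the study, the transcription factor FoxO1 carries arginine in place of the lysines that are acetylated. The series concerns deacetylated FoxO1, the burning of fatty acids in beta cells and the secretion of insulin. Islets were pooled by genotype from 3 WT mice and 3 KR mice, so each group holds 1 pooled library and the spread between animals was not measured. The length of the fast is 48 h in the sample titles but 24 h in the extraction protocol, and both name 6 h of refeeding. With 1 library in each of 4 groups there is no replicate check and no p-value for any difference below. The interval given with a value carries the lower and upper FPKM bounds deposited for each library, added in quadrature, and covers counting and read assignment within the libraries only.

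Islet beta cells secrete insulin when blood glucose rises, as it does after a meal. Insulin signalling moves FoxO1 out of the nucleus through phosphorylation, and acetylation of its lysines is a further control on the same protein. In islets a fast and a meal also shift the response to amino acid supply, in which the transcription factor ATF4 drives genes of amino acid synthesis, amino acid transport and stress signalling.

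The libraries differed in depth. The deposited bounds implied 26415158 fragments in fasted WT, 18103888 in refed WT, 25718949 in fasted KR and 11079100 in refed KR. Ins2, the major mouse insulin gene, had 122864 FPKM in the fasted and 121397 in the refed WT library, and 201043 in the refed KR library. In fasted KR it was listed at 0 with a status that marks too many fragments, so it has no difference of responses. Endocrine hormones marked the tissue as islet in all 4 libraries, with Gcg (glucagon, alpha cells) between 21258 and 26161 FPKM and Iapp (islet amyloid polypeptide, beta cells) between 35463 and 66975 FPKM. The acinar genes Sycn, Gp2 and Ptf1a were listed at 0 in every library. In bulk samples such as these, fewer cells of a type and less RNA per cell cannot be told apart. Foxo1 itself had 17.4 FPKM in fasted WT, 18.8 in refed WT, 14.1 in fasted KR and 13.8 in refed KR. Its difference of responses was -0.14, with an interval from -0.28 to 0.00. FPKM per gene do not show the lysine substitutions.

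Most genes responded to refeeding by a similar amount in both genotypes. The difference of responses had a median of -0.03 and an SD across genes of 0.18, beside an SD of 0.47 for the WT responses and 0.41 for the KR responses. It lay within 0.5 of 0 for 9075 genes, 98.9% of those compared. Across the 9176 genes the WT and KR responses correlated (Pearson r 0.92, Spearman coefficient 0.92), a description of 4 libraries in which genes are not independent replicates. The difference was at least 0.5 for 40 genes (0.436%) and at most -0.5 for 61 genes (0.665%). At the 2-fold level, a difference of at least 1 was seen for 1 gene (0.0109%) and of at most -1 for 3 genes (0.0327%). Just inside the upper level were E2f5 at 0.5003 and Nfil3 at 0.5007, and just outside it Pard6a at 0.4993 and 1700012B15Rik at 0.4952. On the lower side, Stox1 was just inside at -0.5017 and Smpd3 at -0.5018, and Mlph was just outside at -0.4995 and Upp1 at -0.4993.

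The median was slightly below 0, and this depended on scaling. The difference was below 0 for 5327 genes (58.1%), and its interval lay above 0 for 810 genes (8.83%) and below 0 for 1455 genes (15.9%). After each library was rescaled by the median ratio of its genes, the median became 0.00, and 1125 intervals lay above 0 and 986 below 0. The same rescaling gave 55 genes at 0.5 or more and 45 genes at -0.5 or less. The share of higher genes among those with an interval apart from 0 was thus 35.8% as deposited and 53.3% after rescaling. Among genes at 0.5 in either direction it was 39.6% as deposited and 55.0% after rescaling.

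**Figure D1:**
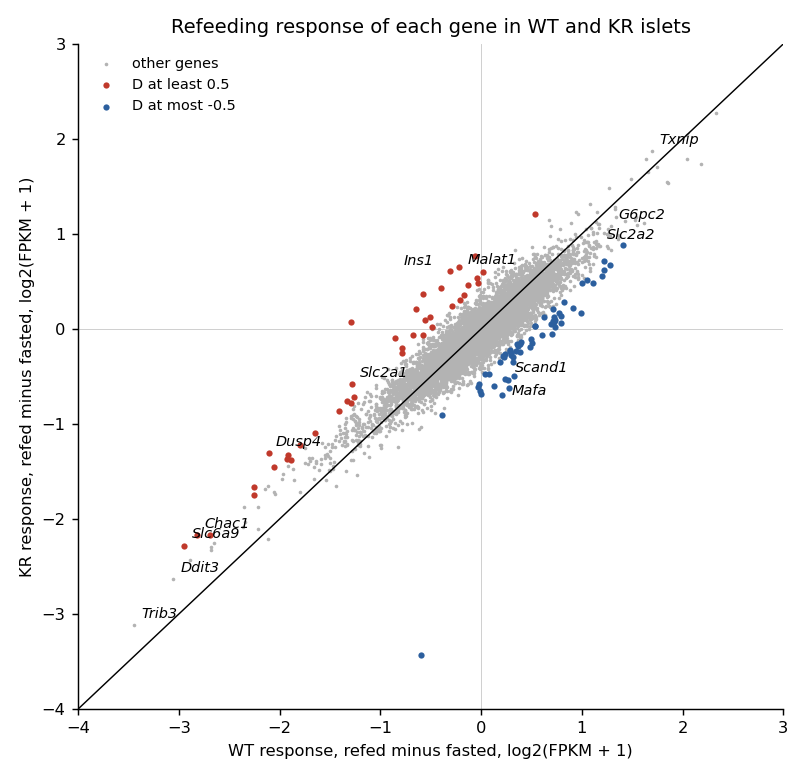
Response to refeeding in KR islets (y axis, log2 units) against the response in WT islets (x axis, log2 units), 1 point per gene, with the line of equal responses. Points lie along the line over the whole range, the 40 genes at a difference of responses (D) of at least 0.5 in red and those at most -0.5 in blue. 2 genes lie outside the axes.

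Genes with a large shared response, taken as the mean of the WT and KR responses, had a smaller response in KR. Among the 187 genes whose shared response was -1 or lower, which were lower after refeeding in both genotypes, the median response was -1.33 in WT and -1.18 in KR. Their median difference of responses was 0.20, and 153 of them were above 0. Among the 58 genes with a shared response of 1 or more, the median response was 1.26 in WT and 1.07 in KR, the median difference was -0.21, and 48 were below 0. The median difference passed through -0.08, -0.03 and 0.05 in the 3 groups of genes between these. For the strongly lowered genes the genotypes stood further apart in the fasted state, with a median KR minus WT difference of -0.18, than in the refed state, where it was 0.01. For the strongly raised genes the fasted difference was 0.15 and the refed difference -0.05. Over all genes the median KR minus WT difference was -0.04 fasted and -0.06 refed, so the refed value of the strongly lowered genes stood above that of all genes. The pattern held in these 2 outer groups under every alternative setting run, with medians from 0.16 to 0.23 and from -0.24 to -0.16.

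The difference also moved with transcript length and GC content, here in groups of equal size, unlike the groups by shared response. The median difference was -0.06 in the shortest and 0.02 in the longest of 5 equal groups by transcript length. Of 5 equal groups by GC content, it was -0.02 in the lowest and -0.06 in the highest. The 61 genes at -0.5 or less had a median transcript length of 1462 bases, the 40 genes at 0.5 or more of 2560 bases and all genes of 3302 bases. The part of length and GC content in the differences was not tested.

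**Figure D2:**
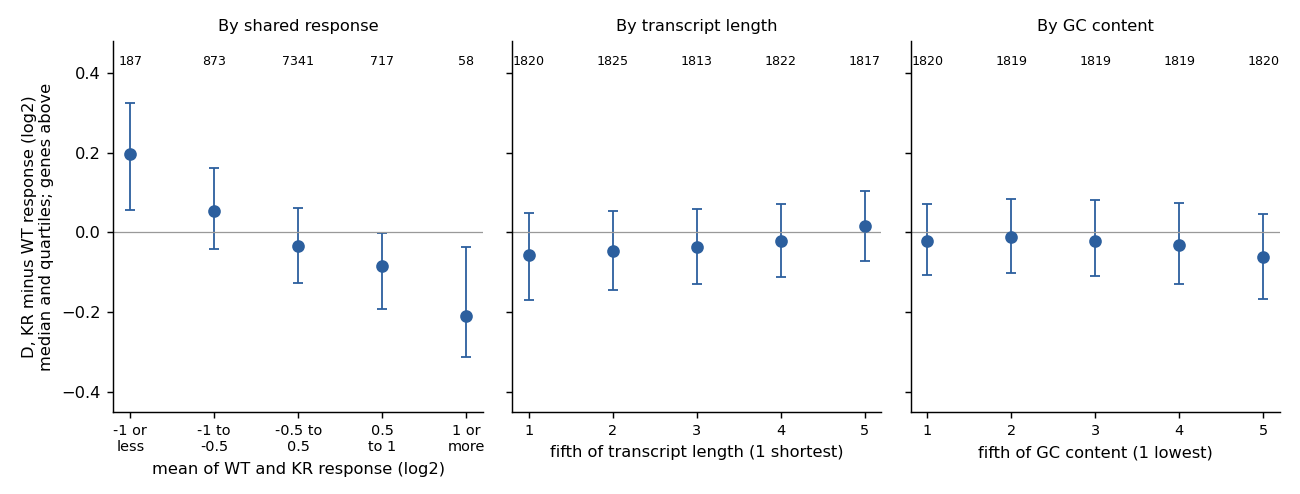
Median and quartiles of the difference of responses (D, y axis, log2 units), with the number of genes above each group. Genes are grouped by shared response at fixed levels, and by transcript length and GC content in 5 equal groups each. The median goes from 0.20 in the 187 genes with a shared response of -1 or less to -0.21 in the 58 genes at 1 or more. These outer groups are small, so their range cannot be compared with that over the equal groups of length or GC content.

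Ins1 had the most precisely measured large difference. This gene encodes insulin 1 and lies at chr19:52338813-52339948 on mm9. Its level was 4320 FPKM in fasted WT (bounds 4291 to 4348) and 3498 in refed WT (3467 to 3529). In KR islets it was 7966 FPKM fasted (7928 to 8005) and 12196 refed (12122 to 12271). The WT level was thus lower after refeeding and the KR level higher, and no bounds overlapped between any of the 4 libraries. The difference of responses was 0.92, with an interval from 0.90 to 0.94. Ins1 and Ins2 are near copies of each other and share reads, and Ins2 has no value in the fasted KR library, so the split of reads between them there is uncertain and its part in the Ins1 value was not tested.

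The transcription factors and glucose-sensing genes that define beta cells went the other way from Ins1. Of 33 genes on a list of beta-cell identity and maturity, 31 passed the filters, and 25 of these had a difference below 0 against 6 above 0, where 58.1% of all genes were below 0. Their median was -0.15 beside -0.03 for all genes, and the interval lay below 0 for 22 of the 31, where the share over all genes was 15.9%. After rescaling, 24 were below 0 and the median was -0.12. The listed genes were higher in KR than in WT by a median of 0.24 in the fasted state and 0.09 in the refed state. Set against genes of similar shared response, in 20 groups of equal size, the listed genes had a median of -0.11.

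Mafa, which binds the insulin promoter and marks mature beta cells, was the farthest below 0 on the list. Its level was 27.7 FPKM in fasted WT (25.5 to 29.9), 32.8 in refed WT (29.9 to 35.7), 53.5 in fasted KR (50.4 to 56.5) and 36.8 in refed KR (32.9 to 40.7). Fasted KR stood above the other 3 libraries, which lay between 27.7 and 36.8 FPKM. The WT response was 0.24 and the KR response -0.53, and the difference was -0.76 with an interval from -1.004 to -0.526. Pdx1, which activates insulin and Slc2a2 transcription, had 44.9 FPKM in fasted WT, 71.0 in refed WT, 63.7 in fasted KR and 75.4 in refed KR, a difference of -0.41 (interval -0.57 to -0.25). Here both refed libraries were the highest, and the genotypes differed mainly in the fasted state. Neurod1, a further activator of the insulin gene, had a difference of -0.32, Nkx2-2 of -0.29 and Nkx6-1 of -0.27. These 3 were picked as examples after their values were seen. The transcription factors of the list, grouped after the values were seen, were below 0 in 14 of 16 cases.

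Glucose entry and its counter-step at glucose 6-phosphate showed the same order. Slc2a2, the main glucose transporter of mouse beta cells, had 47.3 FPKM in fasted WT, 108 in refed WT, 85.4 in fasted KR and 158 in refed KR. It was higher after refeeding in both genotypes and higher in KR in both states. The gap between genotypes was 0.84 in the fasted state and 0.54 in the refed state, a difference of responses of -0.30 (interval -0.39 to -0.21). G6pc2, an islet enzyme that turns glucose 6-phosphate back to glucose, had 221 FPKM in fasted WT, 542 in refed WT, 366 in fasted KR and 776 in refed KR. Its difference was -0.21 (interval -0.26 to -0.16). Iapp, by contrast, had responses of 0.57 in WT and 0.54 in KR, a difference of -0.04 that took the opposite sign, 0.01, once length and GC medians were removed.

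**Figure D3:**
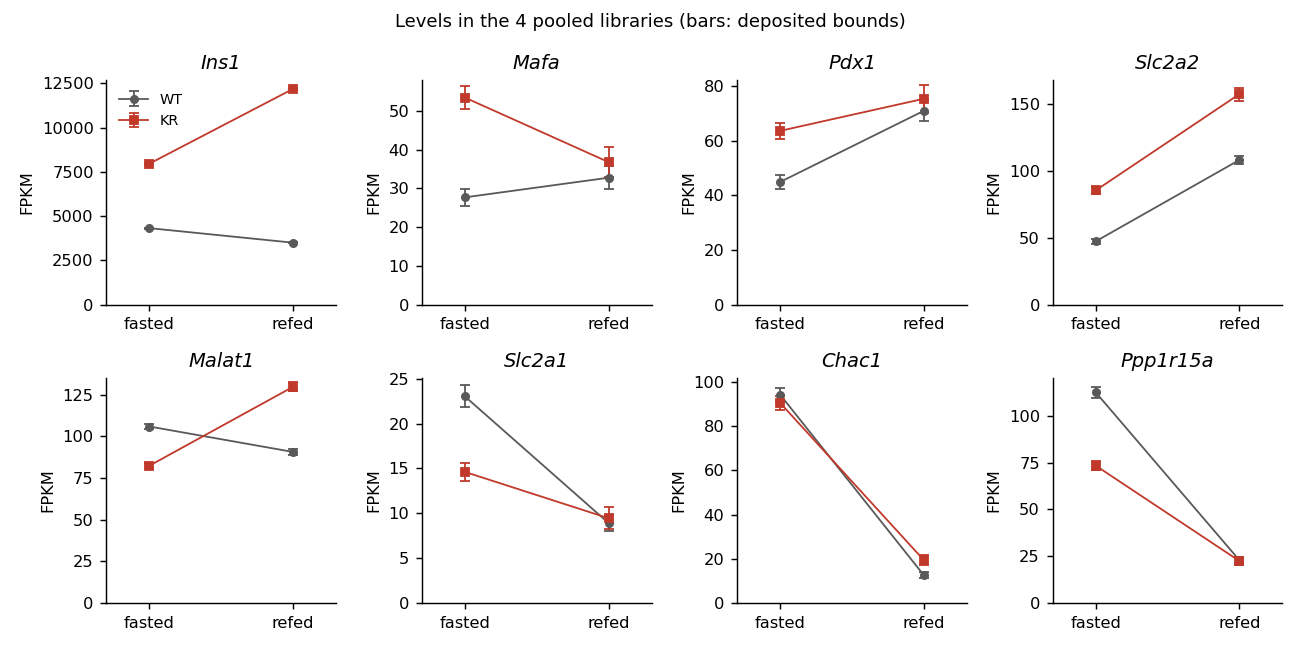
FPKM (y axis, from 0) of 8 genes in the fasted and refed libraries (x axis) of WT (grey) and KR (red), 1 library per point, with bars for the deposited bounds. Mafa is highest in fasted KR, at 53.5, Ins1 and Malat1 are highest in refed KR, and Chac1 and Ppp1r15a are low in both refed libraries.

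Ffar1 and Stx1a, both genes of insulin secretion, had low values. Ffar1, the receptor through which long-chain fatty acids enhance insulin secretion, had 18.2 FPKM in fasted WT, 30.8 in refed WT, 28.8 in fasted KR and 30.8 in refed KR. Only the fasted WT library was low, and the difference was -0.64 (interval -0.95 to -0.34). Stx1a, a plasma membrane SNARE of granule fusion, had 6.14, 9.03, 7.80 and 6.73 FPKM in the same order of libraries, with a difference of -0.68 (interval -1.01 to -0.36). The list of insulin granule and exocytosis genes as a whole had a median of -0.03, equal to that of all genes to 2 decimals. Of its 31 measured members, Stx1a was the 1 gene at -0.5 or less and none was at 0.5 or more. Among receptors, cAMP and RGS genes that tune secretion, 2 of 26 were at -0.5 or less, namely Ffar1 and the muscarinic receptor Chrm4 at -0.52, where the share over all genes was 0.665%. Of the 26, 15 were above 0, where the share over all genes was 41.9%.

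Gcg and most other genes of alpha, delta and PP cells were also below 0. Of 13 measured, 11 were below 0, where the share over all genes was 58.1%, with a median of -0.15. Against genes of similar shared response 9 of the 13 were below, with a median of -0.10. Gcg had 21258 FPKM in fasted WT, 26161 in refed WT, 26030 in fasted KR and 24882 in refed KR. Its level was higher after refeeding in WT and lower in KR, a difference of -0.36 (interval -0.37 to -0.36). Irx2, an alpha-cell transcription factor, had the lowest value of the list, -0.45. Sst (somatostatin, delta cells) was at -0.18, and Ppy (pancreatic polypeptide) was the highest at 0.21.

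Genes of the ATF4 and amino acid response were lower after refeeding in both genotypes, and less so in KR. Of 38 genes listed, 32 were measured, with a median response of -1.52 in WT and -1.43 in KR. The genotypes stood apart mainly in the fasted state. The median KR minus WT difference of the list was -0.24 fasted and -0.03 refed, beside -0.04 and -0.06 for all genes. 24 of the 32 had a difference above 0 (41.9% of all genes) and 8 below 0, with a median of 0.18 beside -0.03 for all genes. The interval lay above 0 for 19 of them, where the share over all genes was 8.83%. 4 of them were at 0.5 or more, where the share over all genes was 0.436%, and none was at -0.5 or less. Of the 32, 23 belong to the 187 strongly lowered genes described above. Within these, the 23 genes of the list had a median difference of 0.30 and the other 164 genes of 0.19. Against genes of similar shared response the 32 had a median of 0.08, with 20 above and 12 below.

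Chac1, Atf3 and Ppp1r15a are shown as sequence because they were 3 of the 4 genes of the list at 0.5 or more and each holds a searched motif in the 250 bases upstream of its start. Ins1 is shown beside them as the precisely measured large difference outside this response. The sequences are from RefSeq on GRCm38.p6 and are written 5′ to 3′ on the strand of the gene. Capitals in Chac1 (chr2:119350992-119351241, plus strand) and Atf3 (chr1:191183334-191183583, minus strand) mark a match to the amino acid response motif TGATGNAA, read on the opposite strand. Its first printed base lies at -193 in Chac1 and at -110 in Atf3, counted from the start site. Capitals in Ppp1r15a (chr7:45526269-45526518, minus strand) mark the CRE, TGACGTCA, at -12. Ins1 (chr19:52264047-52264296, plus strand) held none of the 4 motifs searched.
Chac1: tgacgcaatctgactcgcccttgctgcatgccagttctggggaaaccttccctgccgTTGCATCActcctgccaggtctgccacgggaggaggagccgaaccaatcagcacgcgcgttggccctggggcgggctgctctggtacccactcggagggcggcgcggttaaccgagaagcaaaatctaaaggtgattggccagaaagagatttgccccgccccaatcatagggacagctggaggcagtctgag
Atf3: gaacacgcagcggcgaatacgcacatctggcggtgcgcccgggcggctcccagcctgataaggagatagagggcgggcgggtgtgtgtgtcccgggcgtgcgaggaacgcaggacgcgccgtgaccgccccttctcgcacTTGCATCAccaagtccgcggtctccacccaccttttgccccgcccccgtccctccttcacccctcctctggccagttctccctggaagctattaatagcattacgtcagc
Ppp1r15a: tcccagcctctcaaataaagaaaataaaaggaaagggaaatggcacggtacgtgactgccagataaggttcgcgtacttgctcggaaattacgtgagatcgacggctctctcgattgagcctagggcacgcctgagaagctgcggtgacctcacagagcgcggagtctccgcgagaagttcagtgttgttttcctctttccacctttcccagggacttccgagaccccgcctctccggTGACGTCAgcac
Ins1: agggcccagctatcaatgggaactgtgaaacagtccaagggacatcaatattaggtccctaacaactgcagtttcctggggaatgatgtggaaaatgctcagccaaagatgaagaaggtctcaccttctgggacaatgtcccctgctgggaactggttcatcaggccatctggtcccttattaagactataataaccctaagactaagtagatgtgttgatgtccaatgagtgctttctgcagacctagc

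Chac1, an enzyme that breaks down glutathione and a target of ATF4, had 94.2 FPKM in fasted WT (90.9 to 97.4) and 12.5 in refed WT (11.1 to 13.9). In KR it had 90.5 fasted (87.3 to 93.7) and 19.3 refed (17.04 to 21.6). The fasted bounds overlapped between genotypes and the refed bounds did not. The difference was 0.65 (interval 0.41 to 0.88). Slc6a9, a glycine transporter, had the highest value of the list, 0.67 (interval 0.33 to 0.99), from 16.9 FPKM in fasted WT, 1.32 in refed WT, 13.3 in fasted KR and 1.94 in refed KR. Its refed levels were low, with bounds that overlapped between genotypes. Over the settings run its value went from 0.39 to 0.87, so its rank on the list is uncertain. Ppp1r15a, the phosphatase subunit that reverses the translation block of the stress response, differed between genotypes mainly in the fasted state. Its fasted levels were 113 FPKM in WT and 73.4 in KR, and its refed levels were 22.9 and 22.4, a difference of 0.58 (interval 0.42 to 0.75). Atf3, a transcription factor induced by stress, had the same order with 13.9 and 7.99 FPKM fasted and 2.57 and 2.28 refed, a difference of 0.61 (interval 0.17 to 1.02).

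Ddit3 (CHOP), a stress transcription factor linked to beta-cell death, had 1102 FPKM in fasted WT, 131 in refed WT, 735 in fasted KR and 117 in refed KR. Its difference was 0.42 (interval 0.29 to 0.55). Trib3, a pseudokinase induced with CHOP, had 245, 21.6, 201 and 22.3 FPKM in the same order and a difference of 0.33 (interval 0.15 to 0.49). Both were far lower in the refed than in the fasted libraries of each genotype. Asns, asparagine synthetase, is also on the list, but its responses were small and near equal, -0.25 in WT and -0.29 in KR. The 33 measured aminoacyl-tRNA synthetases, cytosolic and mitochondrial, had a median difference of 0.06, with 22 above 0, where the share over all genes was 41.9%. Against genes of similar shared response their median was 0.02, with 20 above and 13 below. Genes of the unfolded protein response and ER folding had a median of -0.01, and Derl3, a factor of ER-associated degradation, was their 1 gene of 40 at 0.5 or more, at 0.53.

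Motifs in these windows were counted as a description only. Of the 40 genes at 0.5 or more, 32 had a promoter sequence, and both strands were searched. TGATGNAA, added after the values were seen, was found in 3 of them (9.38%), the CRE in 5 (15.6%), the E-box CACGTG in 4 (12.5%) and the FoxO motif GTAAACA in 0. Among the 7453 measured genes with a promoter sequence the shares were 2.28%, 3.45%, 10.7% and 2.66%, and among all 32851 windows of this length 3.45%, 1.55%, 6.02% and 3.17%. The 5 genes with the CRE were Areg, Paqr3, Ppp1r15a, Rpl26 and Zfand2a. Of the measured genes of the ATF4 list, 29 had a sequence and 7 (24.1%) held TGATGNAA. The windows cover 80% of the 40 genes, the least share for which such a comparison was made. They cover 45 of the 61 genes at -0.5 or less (73.8%), so that comparison is void. In these 45 the CRE was found in 4 (8.89%), the E-box in 2, TGATGNAA in 1 and the FoxO motif in 1. No conclusion is drawn from these counts.

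Slc2a1 and Dusp4 were further genes that were lower after refeeding in both genotypes and less so in KR. Slc2a1, the widely expressed glucose transporter, had 23.0 FPKM in fasted WT, 8.91 in refed WT, 14.6 in fasted KR and 9.45 in refed KR, a difference of 0.70 (interval 0.45 to 0.94). The refed libraries were close together and fasted WT was the highest, so that Slc2a1 and Slc2a2 had differences of opposite sign. Dusp4, a phosphatase that switches off ERK signalling, had 11.9, 2.00, 7.39 and 2.39 FPKM in the same order, a difference of 0.80 (interval 0.41 to 1.18). The list of ERK feedback genes did not share this value, with a median of -0.02 and Dusp4 as its 1 gene of 12 at 0.5 or more. Myc, a growth-promoting transcription factor, was at 0.48 and Hmox1, the heme-degrading stress enzyme, at 0.32.

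The clock genes Bhlhe40 and Nfil3, both repressors, were at 0.55 and 0.50. Bhlhe40 had 14.2 FPKM in fasted WT, 5.34 in refed WT, 11.2 in fasted KR and 6.46 in refed KR. Nfil3 had 26.4, 4.75, 22.1 and 5.85 FPKM in the same order. Both had a lower fasted and a higher refed level in KR than in WT. Of 16 measured clock genes 13 were above 0 (41.9% of all genes), with a median of 0.14. The interval lay above 0 for 3 of the 16 (8.83% of all genes).

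Fatty acid oxidation, the process named by the series, showed small differences. Of 43 genes listed, 37 were measured, with a median of -0.08 beside -0.03 for all genes. Of the 37, 13 were above 0 (41.9% of all genes) and 24 below 0 (58.1% of all genes). The interval lay above 0 for 1 (8.83% of all genes) and below 0 for 11 (15.9% of all genes). None reached 0.5 in either direction, where the shares over all genes were 0.436% upward and 0.665% downward. Cpt1a, which controls fatty acid entry into mitochondria, had 28.1 FPKM in fasted WT, 17.5 in refed WT, 28.1 in fasted KR and 16.2 in refed KR. The genotypes were equal in the fasted state, and the difference was -0.10 (interval -0.25 to 0.04). Ehhadh, a peroxisomal enzyme of fatty acid oxidation, was the lowest at -0.41 (interval -0.62 to -0.21), with 10.3, 19.3, 11.2 and 15.4 FPKM in the same order. Echs1, the mitochondrial enoyl-CoA hydratase, was the highest at 0.18. The 78 genes of oxidative phosphorylation had a median of -0.06, with 60 below 0, where 58.1% of all genes were below 0. Set against genes of similar shared response, they had a median of 0.01, with 43 above and 35 below, while the fatty acid oxidation genes had a median of -0.04. After rescaling the medians were -0.05 for fatty acid oxidation and -0.02 for oxidative phosphorylation, both below the 0.00 of all genes.

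FoxO factors, insulin signalling genes and known FoxO targets had no common sign. Of the 32 measured, 16 were above 0 (41.9% of all genes) and 16 below 0 (58.1% of all genes), with a median of -0.02 beside -0.03 for all genes. The interval lay above 0 for 8 of the 32 (8.83% of all genes) and below 0 for 5 (15.9% of all genes). Igf1r, the receptor for insulin-like growth factor 1, was the 1 gene at 0.5 or more. It had 20.9 FPKM in fasted WT, 7.93 in refed WT, 18.2 in fasted KR and 10.2 in refed KR, a difference of 0.52 (interval 0.41 to 0.63), which was 0.39 with a pseudocount of 5. Irs2, the insulin receptor substrate that FoxO1 induces, had responses of -0.73 in WT and -0.70 in KR. Foxo3, a related factor, was at 0.31 (interval 0.04 to 0.57). Gadd45a, a growth arrest gene on the list, was at 0.45 and Txnip, an inhibitor of thioredoxin that glucose induces, at 0.18. Txnip had 18.9 FPKM in fasted WT, 63.4 in refed WT, 24.0 in fasted KR and 90.5 in refed KR, so that refed KR was the highest. Arrdc4, a relative of Txnip that glucose also induces, had 7.63, 5.08, 5.79 and 6.39 FPKM and a difference of 0.63 (interval 0.245 to 0.997).

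Antioxidant genes were mostly below 0 in this measure. Of 31 measured, 28 were below 0 (58.1% of all genes) with a median of -0.14, and the interval lay below 0 for 15 of them (15.9% of all genes). Against genes of similar shared response the median was -0.07, with 21 of 31 below. After rescaling 24 of 31 were below 0 with a median of -0.11. Srxn1, which repairs oxidised peroxiredoxins, had 56.6 FPKM in fasted WT, 101 in refed WT, 53.6 in fasted KR and 73.9 in refed KR. The fasted levels were close and refed WT was the highest, a difference of -0.37 (interval -0.48 to -0.27). Mt1, a metallothionein, had 4405, 3186, 4202 and 2438 FPKM in the same order and a difference of -0.32. Hmox1 was the highest of the antioxidant list.

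The long non-coding RNAs Malat1 and Neat1 were lower after refeeding in WT and higher in KR. Malat1, an abundant nuclear RNA, had 106 FPKM in fasted WT (104 to 107), 90.6 in refed WT (88.9 to 92.4), 82.4 in fasted KR (81.0 to 83.7) and 130 in refed KR (127 to 132). Refed KR was the highest and fasted KR the lowest, and the difference was 0.87 (interval 0.82 to 0.92). Neat1, a nuclear RNA encoded close to Malat1, had 192, 151, 160 and 169 FPKM in the same order and a difference of 0.42, and Meg3, an imprinted RNA, was at 0.40. Both were named after their values were seen. Of 13 measured host genes of small nucleolar RNAs 9 were above 0 (41.9% of all genes), with a median of 0.20. Snhg5 was the highest at 0.48 (interval 0.16 to 0.79) and Snhg3 the lowest at -0.30. Snhg9, named after its value was seen, was at 0.40, but its interval ran from -3.63 to 5.05.

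**Figure D4:**
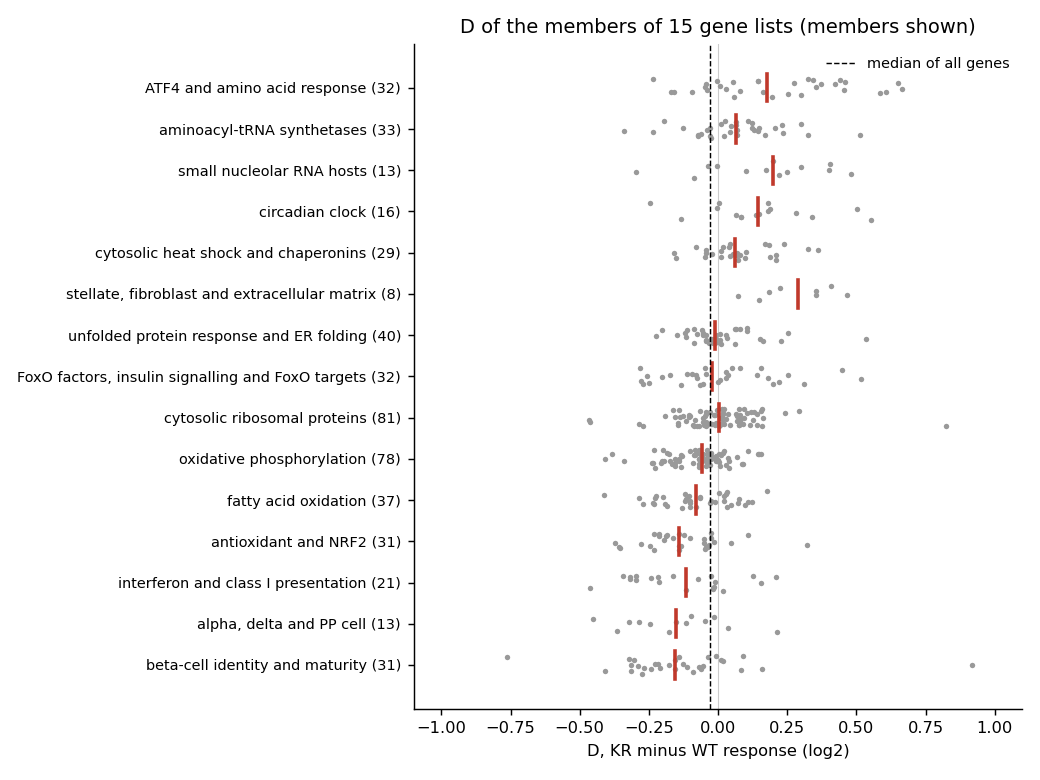
Difference of responses (D, x axis, log2 units) of each measured gene of 15 lists, with the number of genes in parentheses, the list median as a red bar and the median of all genes, -0.03, as a dashed line. Ndufs5 of the oxidative phosphorylation list lies outside the axis. The ATF4, stellate and small nucleolar RNA host lists lie to the right of the dashed line and the beta-cell, alpha and antioxidant lists to its left.

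Markers of cells other than endocrine cells moved with the groups. The 8 measured genes of stellate cells, fibroblasts and extracellular matrix were all above 0 (41.9% of all genes), with a median of 0.29, out of 27 listed. At a mean of at least 1 FPKM, 21 were measured, with a median of 0.19, 17 above 0 and 4 below 0. Vim, an intermediate filament of mesenchymal cells, had 35.3 FPKM in fasted WT, 38.8 in refed WT, 26.7 in fasted KR and 41.0 in refed KR, a difference of 0.47 (interval 0.29 to 0.64). Col4a1, a basement membrane collagen, was at 0.41, and Sparc, a matrix protein, at 0.35. Of 18 endothelial markers 4 passed the filter, with a median of 0.06, and at a mean of at least 1 FPKM 10 were measured, with a median of 0.27. Egfl7, a factor secreted by endothelial cells, had 6.31, 3.68, 4.66 and 5.56 FPKM in fasted WT, refed WT, fasted KR and refed KR, a difference of 0.86 (interval 0.32 to 1.37). Levels of the endothelial markers spanned a wide range, with Ramp2 between 8.43 and 11.4 FPKM in the 4 libraries and Vwf between 0.0425 and 0.0923. The summed level of all 27 stellate and matrix genes was 331 FPKM in fasted WT, 251 in refed WT, 313 in fasted KR and 279 in refed KR. That of the 18 endothelial genes was 57.1, 40.4, 42.4 and 35.6 FPKM in the same order. Both sums were highest in fasted WT. Of 26 genes of class II presentation and macrophages 16 were measured, with a median of -0.07, and the summed level of all 26 was 568, 515, 611 and 537 FPKM. The part of these cells in the differences was not tested.

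**Figure D5:**
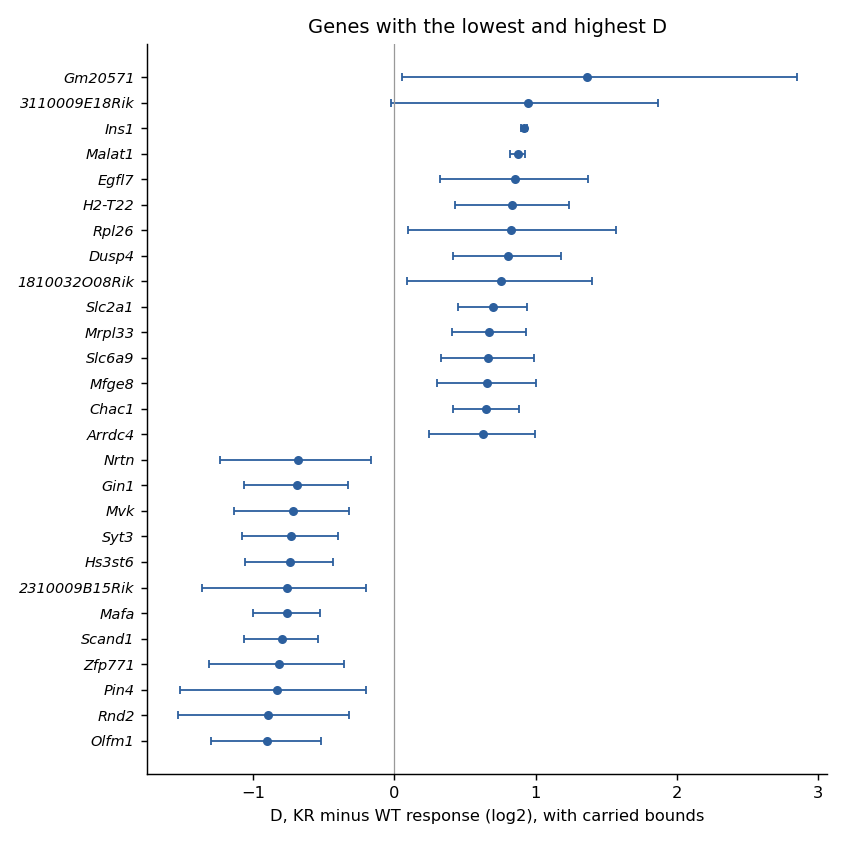
Difference of responses (D, x axis, log2 units) of the genes with the highest and the lowest values, with intervals carried from the deposited bounds. Of the lowest 15, the 3 genes with a library under 0.01 FPKM are left out. The intervals are narrow for Ins1 and Malat1 and wide for Gm20571.

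The highest values included genes of several kinds, among them Rpl26 and H2-T22, which have near-identical copies or close relatives. Whether reads were hard to assign was not tested for any gene named in this paragraph. Gm20571, an unnamed locus, had 19.5 FPKM in fasted WT, 7.38 in refed WT, 16.3 in fasted KR and 17.1 in refed KR, and its interval ran from 0.05 to 2.85 around a difference of 1.36. Rpl26, a protein of the large ribosomal subunit, had 16.2, 12.1, 21.8 and 29.6 FPKM, a difference of 0.82. Ribosomal protein genes have many near-identical processed copies, so this value is uncertain, and the 81 cytosolic ribosomal protein genes had a median of 0.00. H2-T22, a non-classical class I gene with close relatives, was at 0.83. Mrpl33, a protein of the mitochondrial ribosome, had 73.7, 108, 68.0 and 158 FPKM and a difference of 0.67 (interval 0.41 to 0.93), while its list of 75 genes had a median of -0.06. Mfge8, a secreted factor that marks dying cells for uptake, was at 0.65, and 3110009E18Rik, at 0.94, had an interval that included 0.

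The lowest values apart from those near 0 FPKM were those of Olfm1 and Rnd2. Olfm1, a secreted glycoprotein best known from neurons, had 9.87 FPKM in fasted WT, 11.5 in refed WT, 15.3 in fasted KR and 9.07 in refed KR. Fasted KR was the highest, as for Mafa, and the difference was -0.90 (interval -1.30 to -0.52). Rnd2, a small GTPase, had 8.31, 10.3, 12.7 and 7.92 FPKM in the same order and a difference of -0.90 (interval -1.53 to -0.32). Zfp771 and Scand1, both genes of zinc finger or SCAN domain proteins, were at -0.82 and -0.80. Syt3, a synaptotagmin, was at -0.73 (interval -1.08 to -0.40) and Nrtn, the growth factor neurturin, at -0.68 (interval -1.24 to -0.17). A different order held for Pin4, a prolyl isomerase, with 11.4, 23.7, 12.9 and 14.5 FPKM, and for Mvk, mevalonate kinase of cholesterol synthesis, with 4.72, 8.54, 5.27 and 5.37 FPKM. In these 2 genes refed WT stood above the other 3 libraries, and their differences were -0.83 and -0.72.

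The 3 genes at -1 or less each had a library under 0.01 FPKM. Rpl34-ps1 had 31.4 FPKM in refed WT and was under 0.01 in the other 3 libraries, Gm12238 had 26.4 FPKM in refed WT and was listed at 0 elsewhere, and Ndufs5 was under 0.01 FPKM in refed KR only. How reads were assigned to these genes was not tested, and no fold is given for them.

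Within the 40 genes at 0.5 or more, the fasted KR level was below WT for 36 and the refed KR level above WT for 31, with medians of -0.31 and 0.28. In 22 of them both genotypes were lower after refeeding, in 2 both were higher, and in 16 WT was lower and KR higher. Within the 61 genes at -0.5 or less, the fasted KR level was above WT for 58 and the refed KR level below WT for 57, with medians of 0.30 and -0.33. In 25 of these both genotypes were higher after refeeding, in 6 both were lower, in 29 WT was higher and KR lower, and in 1 a response was exactly 0. The intervals were apart from 0 for 37 of the 40 and 53 of the 61, counts that the choice by size favours. The same choice favours the directions of the fasted and refed KR minus WT gaps, because the difference is the refed gap minus the fasted gap. Over all genes the median gap was -0.04 fasted and -0.06 refed. Both sets had lower levels than genes in general, with a median mean level of 8.42 and 8.67 FPKM beside 19.4 FPKM for all genes. For 59 genes the bounds of the 2 responses lay on opposite sides of 0, 40 with WT up and KR down and 19 with the reverse, and in 0 of them did both responses reach 0.5.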

How the data were processed

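RNA of 4 pooled islet libraries was poly-A selected and prepared with an Illumina TruSeq kit, per the labels' protocols. The submitters' processing notes name bcl2fastq 1.8.4, TopHat2 2.0.4 and the mouse build mm9. Each deposited table gives FPKM per gene, bounds on both sides of it and a status, per the file headers. Which program, annotation, strand setting and scaling total lie behind the FPKM is not given in the sources used here. In Python 3.11.15 with pandas 2.3.3 and numpy 2.4.6, the 23699 rows were summed by symbol, symbols without status OK in all 4 libraries (189, among them Ins2) and 27 small RNA genes were left out, and a mean of at least 5 FPKM was required. Values are log2(FPKM + 1), which understates changes of low genes. Depth was implied from the bounds. No test is possible with 1 library per group. The computation was tested on simulated data. Gene lists (43) and the genes described were chosen with earlier results of these data known. The genes named are the 15 highest and 15 lowest differences, a panel of 10, and the genes of each list at 0.5 or beyond (up to 4 per direction) or else its extremes; for others the text says that they were picked with their values known, or they serve as checks of tissue. Iapp, Gcg, Sst, Asns, Irs2, Foxo3, Gadd45a, Col4a1 and Sparc are likewise outside the rule and were chosen with values known. Transcript length and GC content come from the longest GENCODE M21 transcript, known for 9097 genes (99.1%). The 12 alternatives in the closing section changed the pseudocount, filter, scaling, handling of rows, bounds or gene set.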

Additional observations from a re-analysis of the deposited data

Results flagged for a closer look

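For the 9 genes given below, of 59 among all 9176, the WT and KR libraries moved in opposite directions on refeeding. The interval of each response was apart from 0. Smpd3, named above only for its place at the lower level, is also among the 59. The difference itself was not tested, since each group has 1 pooled library. Ins1 had a response of -0.30 in WT and 0.61 in KR, a difference of 0.92. Malat1 had -0.22 in WT and 0.65 in KR, a difference of 0.87. Neat1 had -0.34 in WT and 0.07 in KR, a difference of 0.42, and was chosen after its value was seen. Hspa8, the constitutive cytosolic HSP70 chaperone, had 1602 FPKM in fasted WT, 1423 in refed WT, 1203 in fasted KR and 1373 in refed KR, a difference of 0.36. Gcg had responses of 0.30 in WT and -0.07 in KR, a difference of -0.36, and was also chosen after its value was seen. Mafa had responses of 0.24 in WT and -0.53 in KR, a difference of -0.76. Scand1 had 43.8, 52.8, 64.6 and 44.3 FPKM in fasted WT, refed WT, fasted KR and refed KR, a difference of -0.80. Zfp771 had 5.59, 7.25, 7.60 and 5.11 FPKM in the same order, a difference of -0.82. Kcnk3, a potassium channel, had 5.69, 6.56, 8.54 and 7.21 FPKM, a difference of -0.39. In Scand1, Zfp771, Kcnk3 and Mafa the fasted KR library was the highest.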

How the results depend on the processing

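The number of genes at a difference of 0.5 or more was 40 as reported, 14 with a pseudocount of 5, 139 with a mean of at least 1 FPKM, 7 with a mean of at least 20 FPKM and 230 with no filter. The number at -0.5 or less was 61 as reported and 16, 190, 11 and 302 under the same settings. Fewer or more genes tested, and a pseudocount that shrinks low genes, change these counts by construction. Intervals above 0 numbered 403 at a mean of at least 20 FPKM and 145 with all 4 bounds at their worst ends, beside 810, and intervals below 0 numbered 257 at the worst ends, beside 1455. Removing the medians of genes of like transcript length and GC content, an alternative chosen after seeing the data, gave 60 genes at 0.5 or more and 41 at -0.5 or less, with 990 intervals above 0 and 1000 below 0. Of 1156 values of named genes under the alternatives, 23 moved beyond their interval, and 1 more, of Iapp, did so and was counted apart as reversed. The sign changed for 6 values of 4 genes, Bhlha15, Cd74, Rian and Iapp, all within 0.08 of 0 as reported. Of these, Iapp alone had an interval apart from 0, and it was at 0.0104 with length and GC medians removed. Of 448 list medians relative to all genes, 6 moved by 0.1 or more, and 2 more did so and were counted apart as reversed. The sign changed for 16 medians of 12 lists. Among these, the neuron, Schwann cell and glia list alone stood 0.1 or more from all genes as reported, at -0.13, and it was at 0.0334 with a mean of at least 1 FPKM and 0.0079 with no filter. The cause was not tested. No paired analysis was possible because each group has 1 library, and for the same reason no library could be left out. Depth was lowest in refed KR, which limits values of genes near 5 FPKM.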

Other observations

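Tubulins and histone cluster genes, grouped after their values were seen, mostly stood below 0 in the difference of responses, where 58.1% of all genes were below 0 and 15.9% had an interval below 0. Of 13 measured tubulin genes, the subunits of microtubules, 12 were below 0, with a median of -0.21, a median response of 1.02 in WT and 0.70 in KR, and intervals below 0 for 8 of them. The median of strongly raised genes in general was also -0.21. Against genes of similar shared response, in 20 groups of equal size, the tubulins had a median of -0.15, with 12 of 13 below. Tuba1a had 79.7 FPKM in fasted WT, 232 in refed WT, 78.1 in fasted KR and 174 in refed KR, a difference of -0.38. Tubb2a had 25.7, 70.2, 25.1 and 47.2 FPKM in the same order, a difference of -0.53. The fasted levels of these 2 genes were close between genotypes and refed WT was the highest. Of 17 histone cluster genes 14 were below 0, with a median of -0.27 and intervals below 0 for 4, a share near that of all genes. Against genes of similar shared response they had a median of -0.16, with 13 of 17 below. Hist1h2bc, a core histone, had 71.6, 175, 85.2 and 169 FPKM, a difference of -0.30. Most histone cluster transcripts lack a poly-A tail, and these libraries were poly-A selected, so the values cover only the part of the transcripts that was captured. Members of both families share sequence, so reads may be split between them.

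Cytosolic heat shock and chaperonin genes had a median difference of 0.06, with 22 of 29 above 0 (41.9% of all genes) and an interval above 0 for 10 (8.83% of all genes). Genes of ribosome biogenesis and the nucleolus had a median of 0.04, with 29 of 46 above 0 (41.9% of all genes). Genes of interferon signalling and class I presentation had a median of -0.12, with 17 of 21 below 0 (58.1% of all genes), but 12 of 21 after rescaling, and against genes of similar shared response the median was -0.01. Psmb9, a subunit of the immunoproteasome, was the lowest of them at -0.46. B and T lymphocyte genes did not pass the filter, and 14 of them summed to 4.1 FPKM in fasted WT, 4.8 in refed WT, 12.3 in fasted KR and 7.2 in refed KR.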
